A study of Mus musculus with 11 samples.

Results

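Control mouse embryos at the 8-cell stage were compared between the preparation batches of one single-embryo RNA-seq experiment. The rule took the embryos with the genotype label Prdm10 WT/HET, which were 6 of the 11 embryos in the series, and no mutant was used. The 3 control embryos of batch 1 were pre-amplified with 16 cycles of PCR and the 3 of batch 2 with 13 cycles. All 6 were C57BL/6 embryos of E2.5, from natural matings between mice with 1 deleted allele of *Prdm10*, a gene for a zinc finger protein that binds DNA. A control embryo could carry 2 intact alleles or 1, since embryos were sorted by detecting exon 5 of *Prdm10* in their cDNA, and the labels do not separate these genotypes. Batches were isolated and processed apart, so cycle number, mothers, collection and exact age within day 2.5 cannot be told apart. Every difference below is therefore one between batches, given as batch 1 minus batch 2.

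In Smart-seq2, oligo-dT primers copy polyadenylated RNA into full-length cDNA, which is amplified by PCR because 1 embryo holds too little RNA to sequence directly. Each cycle copies the molecules again, and sequences that are rich in G and C, rich in A and T, or long are known to be copied with unequal efficiency. Embryos at this stage run on transcripts of their own genome while maternal transcripts are removed, divide quickly, and are about to compact and to separate trophectoderm from inner cell mass.

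The libraries held between 3.53e+06 and 7.20e+06 counts, with means of 5.85e+06 ± 1.52e+06 in batch 1 and 5.70e+06 ± 1.92e+06 in batch 2 (SD, n = 3 each). Markers of the embryo itself were present in both batches. Of 10 such genes, 9 passed the filter described below, and *Cdx2*, a trophectoderm factor, did not, with at most 2.13 counts per 1000000 counts (CPM) in any library. Of these 9, edgeR called 1 between the batches, *Tfap2c* (against 7.1% of all genes), DESeq2 called 2 (against 14%), and in 5 the batches did not overlap (against 32%). Batch 2 replicate 1 stood apart from the others. Its log2 expression correlated with the rest of batch 2 at r = 0.85 and 0.84 across genes, which are not independent replicates, whereas batch 2 replicates 2 and 3 reached 0.91 and the pairs within batch 1 lay between 0.91 and 0.92. It also held most of the counts from genes that mark oviduct and blood. *Lyz2*, which macrophages also express, and *Ovgp1*, 2 of the 10 genes listed for oviduct, made up nearly all of the oviduct signal.

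The Xist and Y-linked counts set a second library apart. *Xist*, the noncoding RNA that silences an X chromosome in female cells, had 1686, 0 and 2262 counts in batch 1 replicates 1 to 3 and 0, 2575 and 5880 counts in batch 2. *Eif2s3y*, a Y-linked initiation factor gene, had 0, 147 and 0 counts in batch 1 and 262, 84 and 0 in batch 2. Batch 2 replicate 2 was thus the only library with high counts of both, and *Ddx3y* gave 18 counts there against 112 in batch 2 replicate 1. How both came to be in 1 library was not tested.

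**Figure D1:**
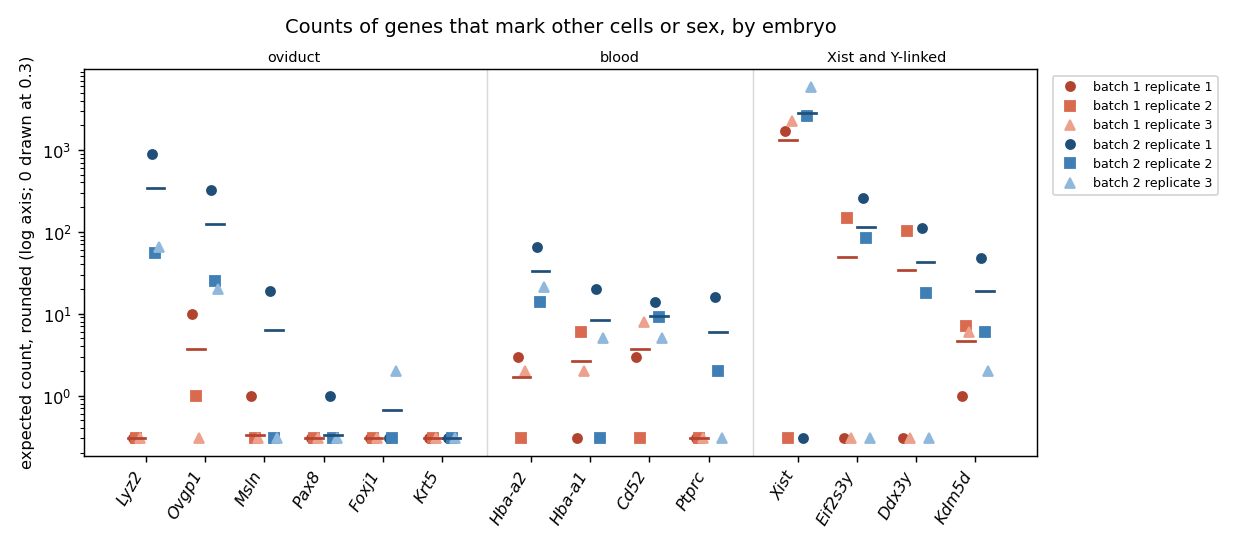
Rounded expected counts, on a log axis with 0 drawn at 0.3, of genes that mark oviduct, blood and sex in each of the 6 libraries; short bars are batch means. *Lyz2* is at 0 in all of batch 1 and reaches 898 in batch 2 replicate 1, and batch 2 replicate 2 has both *Xist* (2575) and *Eif2s3y* (84).

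To ask how far the batches differ, each gene was tested between the 3 embryos of batch 1 and the 3 of batch 2. Of 54146 genes in the files, 10320 had a mean normalised count above 10 and were tested. The edgeR quasi-likelihood test with Benjamini-Hochberg adjustment called 733 of them (7.1% of genes tested) at an adjusted p under 0.05. Of these, 374 were higher in batch 1 (3.62%) and 359 lower (3.48%), and 666 (6.45%) differed more than 2-fold. An unadjusted p under 0.05 was reached by 2718 genes. In 3307 genes (32%) the values of the batches did not overlap, with batch 1 above in 1664 (16.1%) and below in 1643 (15.9%). The split of the calls depended on the scale. On log2(TPM + 1), limma called 534 genes higher and 152 lower, so that 77.8% of calls were higher against 51.0% in the counts, and the median over all genes moved from -0.03 to 0.19, a shift of 0.23.

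The number of calls rested strongly on single embryos. It was 149 without batch 1 replicate 1, 11 without batch 1 replicate 2, 334 without batch 2 replicate 2 and 254 without batch 2 replicate 3. Without batch 1 replicate 2, 729 of the 733 genes kept the sign of their difference and 1838 genes had an unadjusted p under 0.05. In 728 of the 733 the batches did not overlap, so leaving out an embryo could hardly turn their sign. Leaving out batch 2 replicates 1 and 2 together gave 163 calls, in a fit that assumes that the lone embryo of batch 2 varies like those of batch 1.

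The difference between batches followed base composition. Genes of GC-rich transcripts were higher in batch 1 and genes of GC-poor transcripts were lower. In 10 equal bins by the mean GC content of a gene's transcripts, the median log2 fold change went from -0.58 in the lowest bin, of 30.8 to 41.8% GC, to 0.63 in the highest, of 57.7 to 72.9% GC. In the lowest bin 3 genes were called higher (0.29%) and 101 lower (9.79%). In the highest bin 100 were called higher (9.69%) and 5 lower (0.48%). Across 10317 genes with a GC value, Spearman's rho between log2 fold change and GC was 0.41, a description only, since genes share the same 6 libraries. The median GC was 55.2% in genes called higher, 44.7% in genes called lower and 49.8% in the rest.

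The trend was also taken embryo by embryo, against the mean of all 6, so that the 6 values are tied to each other. It was measured as the median deviation of the highest GC bin from the 6-library mean, less that of the lowest bin, in log2 CPM. It was 0.86, 0.70 and 0.14 in batch 1 and -0.67, -0.58 and -0.41 in batch 2. The batches did not overlap, although batch 1 replicate 3 lay nearest to batch 2. The means were 0.57 ± 0.38 and -0.55 ± 0.13 (SD, n = 3 each), with p = 0.1 in a two-sided exact permutation test, below which 3 embryos against 3 cannot go.

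Transcript length gave a curved relation. By effective length, the part of a transcript on which a read can start, the median log2 fold change was -0.40 in the shortest of 10 bins, 0.26 in the sixth and -0.71 in the longest. The longest bin, of genes above 4374 bases, held 135 genes called lower (13.1%) and 5 higher (0.48%). The longest bin less the fifth, in log2 CPM, was -0.23, -0.59 and -0.50 in batch 1 and 0.79, 0.26 and 0.38 in batch 2, again without overlap (exact permutation test, two-sided, n = 3 each, p = 0.1). With genes split into 3 bins by each property, 189 of 1433 long, GC-poor genes were called lower (13.2%) and 5 higher, whereas 148 of 1153 GC-rich genes of middle length were called higher (12.8%) and 2 lower.

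**Figure D2:**
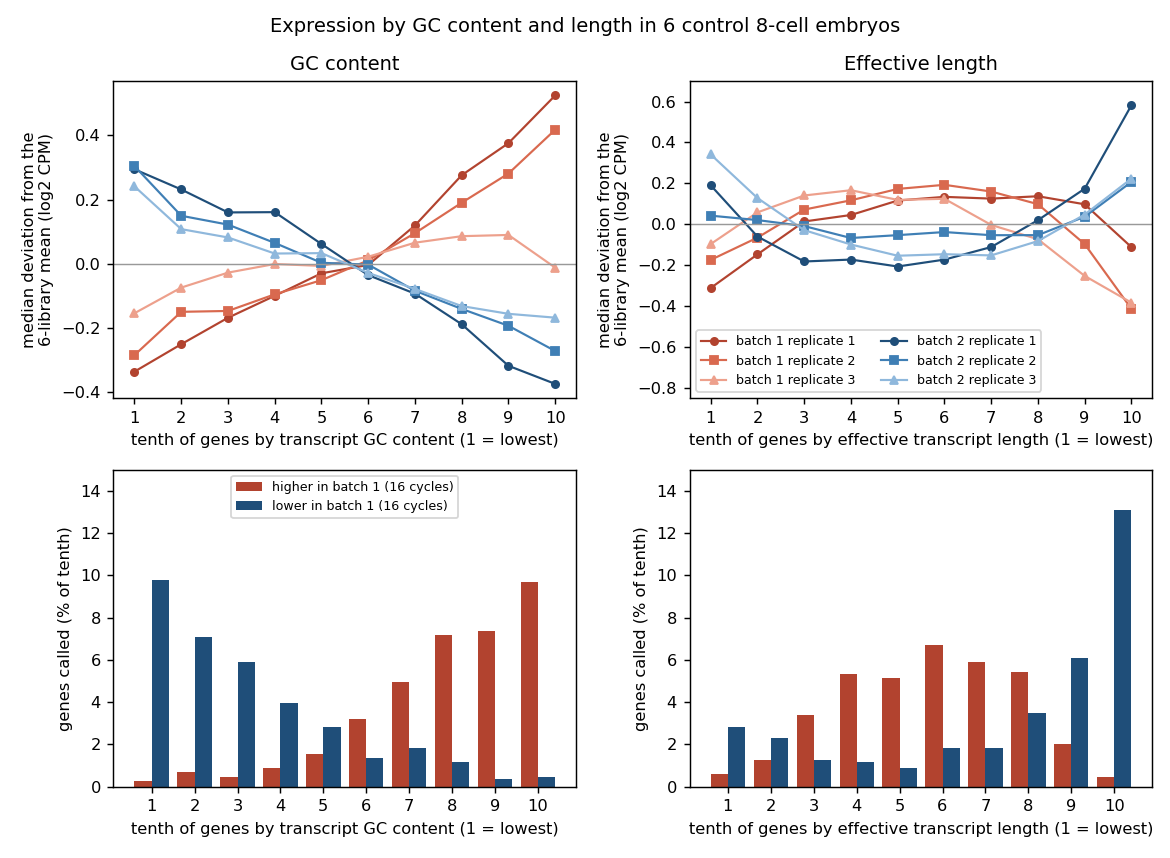
Top, median deviation from the mean of the 6 libraries (log2 CPM) in 10 equal bins of genes by transcript GC content (left) and effective length (right), 1 line per embryo; bottom, percent of genes in each bin called higher or lower in batch 1. In the highest GC bin batch 1 lies at 0.52, 0.42 and -0.01 and batch 2 at -0.38, -0.27 and -0.17, and the calls lower in batch 1 reach 13.1% in the longest bin.

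When a smooth GC trend was removed from each library before the test, 338 genes were called (3.28%), 144 higher (1.4%) and 194 lower (1.88%), of which 269 were among the 733. When GC and length trends were both removed, 170 were called (1.65%), 73 higher (0.707%) and 97 lower (0.94%), with 127 of them among the 733.

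Genes with the largest differences were named by rule, as the 10 largest in each direction among called genes with a mean count above 100 and no overlap between the batches. The lack of overlap in these 20 genes was thus fixed by the rule. Those higher in batch 1 included *Ccn1*, which encodes a matricellular protein, *Tkt*, the pentose phosphate enzyme transketolase, *Socs3*, an inhibitor of cytokine signalling, *Sardh*, a mitochondrial enzyme of sarcosine breakdown, and the integrin beta genes *Itgb4* and *Itgb7*. Those lower in batch 1 included *Nbeal1*, *Alms1*, a centrosome and cilium gene, *Fam208b*, *Nufip2*, *Zfc3h1* and *Arap2*. All 20 kept their direction with GC and length trends removed, and 14 of 20 then still had an adjusted p under 0.05. Without batch 2 replicates 1 and 2, 13 of 20 were called, and 5 of 20 were called whichever embryo was left out.

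The CPM of *Ccn1* was 40.8, 48.4 and 43.6 in batch 1 and 4.45, 3.04 and 2.02 in batch 2. Its log2 fold change was 3.78 ± 0.41 (SE), with edgeR adjusted p = 0.00326. *Tkt* had a CPM of 210.2, 244 and 136 in batch 1 and 21.1, 51.7 and 30.5 in batch 2 (log2 fold change 2.52 ± 0.36 (SE), edgeR adjusted p = 0.00759). *Socs3* had 228, 213 and 86.6 CPM against 25.3, 40.2 and 29.9 (log2 fold change 2.48 ± 0.37 (SE), edgeR adjusted p = 0.00803). All 3 still had an adjusted p under 0.05 with both trends removed, at 0.00698, 0.0203 and 0.0273. Without batch 1 replicate 2 the edgeR adjusted p of *Ccn1* was 0.0258, and *Tkt* and *Socs3* were not called, at 0.0632 each.

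*Nufip2*, whose product binds RNA, had a CPM of 35.6, 25.02 and 26.7 in batch 1 and 177, 149 and 212 in batch 2 (log2 fold change -2.62 ± 0.26 (SE), edgeR adjusted p = 0.00244). *Fam208b* had 16.1, 17.4 and 10.6 CPM against 112, 89.5 and 90.8 (log2 fold change -2.73 ± 0.30 (SE), edgeR adjusted p = 0.00326). Both were called whichever embryo was left out. *Nbeal1*, with a mean effective length of 12155 bases the longest of the 20, had 12.5, 8.57 and 7.01 CPM against 57.0, 62.1 and 87.4. Its log2 fold change of -2.87 became -1.14 with both trends removed, and its edgeR adjusted p went from 0.00412 to 0.134.

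Coding stretches of 4 of these genes show what these differences in base composition look like. They are the protein-coding genes with the highest GC content among the 10 named higher (*Pheta1* and *Itgb4*) and the lowest among the 10 named lower (*Zfp966* and *Nbeal1*), and each stretch is the middle 90 bases of the gene's longest coding exon, read 5′ to 3′ on the gene's strand from GENCODE transcripts of GRCm38, with G and C in capitals.
Pheta1, chr5:121852931-121853020, plus strand: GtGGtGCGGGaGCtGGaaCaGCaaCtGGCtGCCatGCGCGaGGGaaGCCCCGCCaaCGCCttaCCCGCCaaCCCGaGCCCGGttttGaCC
Itgb4, chr11:115982788-115982877, plus strand: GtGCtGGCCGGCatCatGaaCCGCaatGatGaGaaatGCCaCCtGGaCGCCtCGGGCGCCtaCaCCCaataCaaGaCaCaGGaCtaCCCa
Zfp966, chr2:175920920-175921009, minus strand: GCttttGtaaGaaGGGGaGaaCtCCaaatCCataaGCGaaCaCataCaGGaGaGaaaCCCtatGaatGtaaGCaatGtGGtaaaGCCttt
Nbeal1, chr1:60235226-60235315, plus strand: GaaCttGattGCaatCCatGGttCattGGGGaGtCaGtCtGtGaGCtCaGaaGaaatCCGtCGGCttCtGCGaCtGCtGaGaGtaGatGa

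The stretches held 67.8%, 57.8%, 41.1% and 48.9% G and C, in that order, and the whole transcripts of the genes 62.1%, 59.2%, 36.8% and 37.2%. The log2 fold changes were 3.76, 2.36, -2.53 and -2.87. The stretch of *Nbeal1* is thus less poor in GC than its transcripts as a whole. *Pheta1*, an adaptor gene of endosomes, had a CPM of 74.9, 55.1 and 19.2 in batch 1 and 2.44, 3.04 and 5.40 in batch 2. *Itgb4* had 49.2, 29.4 and 20.2 CPM against 6.32, 8.52 and 4.56.

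Some of the 20 records cannot be read as single genes. Of the 50-base windows of *Gm28438*, the record with the largest fold change among those higher, 99.0% also lie in *mt-Nd3*, a subunit of complex I encoded in mitochondrial DNA. Its CPM was 210.3, 472 and 302 in batch 1 and 0, 0 and 2.53 in batch 2, and *mt-Nd3* itself had 1006, 1272 and 1429 against 816, 962 and 1125, with no call (edgeR adjusted p = 0.322). *Gm48419* and *Gm48423* share their whole sequence and have the same counts in every library. *Zfp966* shares 89.96% of its windows with other zinc finger genes and *Tdpoz2* 48.3% with its relatives, so their values are uncertain.

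*Lyz2*, which encodes lysozyme 2 of macrophages and some epithelia, was lower in batch 1. It had 0 counts in all of batch 1 and 898, 55 and 66 counts in batch 2, which makes batch 2 at least 102-fold higher against a floor of 3 counts per library, or at least 27.1-fold higher without batch 2 replicate 1 (edgeR adjusted p = 0.0113). It was not called without batch 1 replicate 1 (0.0515) or batch 1 replicate 2 (0.0653) or by limma-voom (0.227), and 15.4% of its windows lie in *Lyz1*. *Ovgp1*, the oviduct glycoprotein gene, had 10, 1 and 0 counts against 325, 25 and 20 (edgeR adjusted p = 0.0365), and 26.6% of its windows lie in *Gm42890*. With both trends removed its edgeR adjusted p was 0.0698. Of the fits that leave out 1 embryo, *Ovgp1* was called only in that without batch 2 replicate 3. Over all 10 oviduct markers the summed level was 0.12 to 0.93 TPM in batch 1 and 11.5 to 146 TPM in batch 2, with *Krt5*, *Wt1* and *Sftpd* at 0 in every library and *Pax8* and *Foxj1* at no more than 2 counts. The 8 blood markers summed to 3.12 to 5.42 TPM in batch 1 and 12.3 to 38.9 TPM in batch 2. Of these, *Hba-a2*, an alpha globin gene that shares 89.3% of its windows with *Hba-a1*, was called lower in batch 1 with 3, 0 and 2 counts against 65, 14 and 21 (edgeR adjusted p = 0.0341, and 0.0650 with both trends removed), while *Hbb-bs* and *Hbb-bt* were at 0 throughout. The call of *Hba-a2* was lost whichever embryo was left out, and without batch 2 replicate 1 the gene did not pass the filter. The 12 granulosa markers summed to at most 2.46 TPM and the 7 sperm markers to at most 2.44 TPM, with 0 calls between the batches by edgeR and 1 granulosa marker tested. The part of RNA from other cells in the differences between batches was not tested.

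Several genes of DNA replication were higher in batch 1. Of 35 members tested, 8 were called higher (22.9%, against 3.62% of all genes) and 0 lower, and the median log2 fold change was 0.49 against -0.03 over all genes. The 8 were *Mcm2*, *Mcm3*, *Mcm5*, *Mcm6* and *Mcm7*, subunits of the helicase that opens DNA at origins, *Cdt1*, which loads it, *Pola2*, a subunit of the polymerase that starts new strands, and *Fen1*, the nuclease that trims Okazaki fragments. Of the windows of *Mcm7*, 18.1% lie in other records. *Mcm2* had a CPM of 189, 225.9 and 141 in batch 1 and 56.0, 65.4 and 43.7 in batch 2 (log2 fold change 1.75 ± 0.26 (SE), edgeR adjusted p = 0.00803). *Mcm5* had 125, 111 and 84.4 CPM against 21.5, 29.5 and 34.6 (log2 fold change 1.90 ± 0.29 (SE), edgeR adjusted p = 0.00803). In both genes the lowest embryo of batch 1 was more than 2-fold above the highest of batch 2. *Gmnn*, which encodes the inhibitor of Cdt1, had 237, 259 and 311 CPM against 495, 346 and 326, lower without overlap but with no call (edgeR adjusted p = 0.170). With GC and length trends removed the median of the list was 0.40, and *Mcm2* and *Mcm5* remained called, at adjusted p = 0.0312 and 0.0263, while the other 6 lost their call. The count also rested on single embryos. edgeR called 0 of 35 without batch 1 replicate 2, 2 without batch 1 replicate 1, 2 without batch 2 replicate 3, 5 without batch 2 replicate 1, and 2 without batch 2 replicates 1 and 2.

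Among replication-dependent histone genes, the calls were lower in batch 1. Their mRNAs mostly end in a stem-loop in place of a poly(A) tail and are made in step with DNA synthesis. Of 68 genes listed, 12 were tested, 3 were called lower (against 3.48% of all genes) and 0 higher, the median log2 fold change was -1.90, and 9 of 12 lay lower in batch 1 without overlap (against 15.9% of all genes). *Hist1h1b*, a linker histone gene, had a CPM of 2.66, 4.87 and 10.9 in batch 1 and 49.1, 25.9 and 23.1 in batch 2 (log2 fold change -2.41 ± 0.55 (SE), edgeR adjusted p = 0.0301). *Hist1h4d* had 6.73, 5.33 and 16.0 CPM against 40.7, 28.3 and 29.9 (edgeR adjusted p = 0.0429). *Hist2h3c2* was the third call, and 63.5% of its windows are shared with *Hist2h3c1*. The only member with a value above 0 was *H1f0* (log2 fold change 1.35, edgeR adjusted p = 0.183), a linker histone gene that is expressed outside S phase too and came into the list by its symbol. The median was -1.85 with both trends removed and -1.68 without batch 2 replicates 1 and 2. None of the 3 calls held in either, with edgeR adjusted p = 0.0561 and 0.133 for *Hist1h1b*, while DESeq2 on all embryos called 5 of 12 lower. edgeR called 0 lower without batch 1 replicate 1, batch 1 replicate 2, batch 2 replicate 2 or batch 2 replicate 3, and without batch 2 replicate 1 it called 1 lower and 1 higher, *H1f0*.

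Mitosis genes split. Of 30 tested, 3 were called higher and 3 lower (against 3.62% and 3.48% of all genes), with a median of 0.03. Without batch 1 replicate 1 or batch 1 replicate 2 edgeR called 0 of them, without batch 2 replicate 3 it called 1, and without batch 2 replicate 2 it called 2. Without batch 2 replicates 1 and 2 it called 1 higher and 0 lower. *Plk1*, a mitotic kinase, had a CPM of 343, 307 and 328 in batch 1 and 109, 182 and 148 in batch 2 (log2 fold change 1.16 ± 0.23 (SE), edgeR adjusted p = 0.0208). *Cdc20*, an activator of the anaphase-promoting complex, had 978, 1043 and 1391 CPM against 672, 592 and 396 (log2 fold change 1.04 ± 0.24 (SE), edgeR adjusted p = 0.0334). *Ccnf*, a subunit of a ubiquitin ligase, was also higher (edgeR adjusted p = 0.0287). *Cenpf* and *Cenpe*, large kinetochore proteins, and *Mad2l1*, of the spindle checkpoint, were lower, at -1.82, -0.89 and -0.87. The 3 higher genes have 53.5 to 56.0% GC and the 3 lower genes 40.4 to 43.3%, and with both trends removed none of the 6 had an edgeR adjusted p under 0.05, while *Cenpe* turned to 0.16. *Ccnb1*, cyclin B1, had a log2 fold change of -0.01 ± 0.23 (SE; edgeR adjusted p = 0.988).

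**Figure D3:**
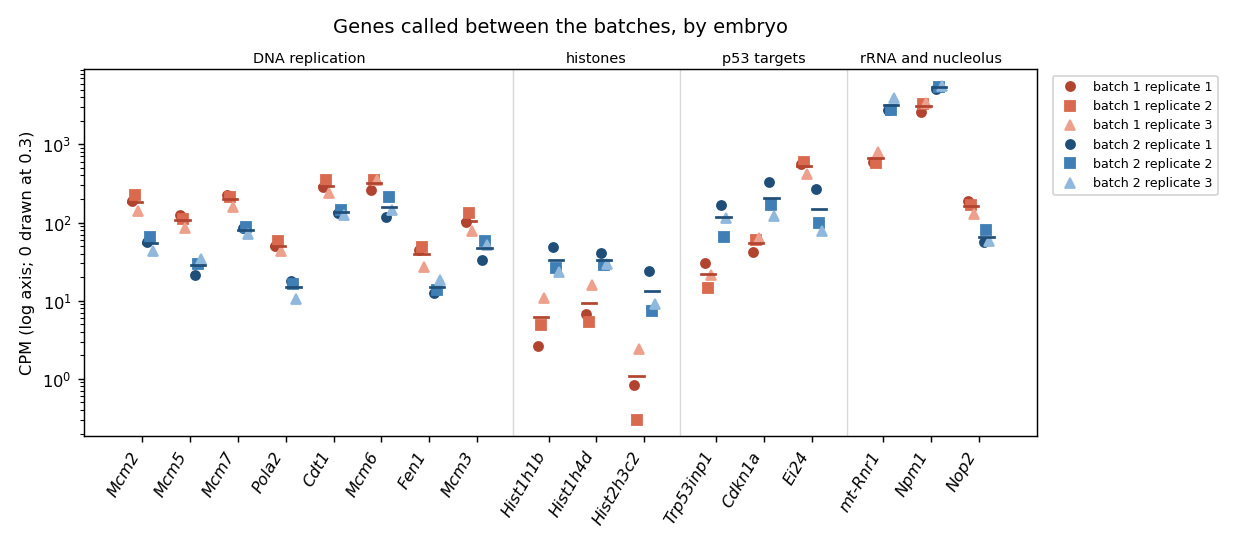
CPM in each of the 6 embryos, on a log axis with 0 drawn at 0.3, for called genes of DNA replication, histones, p53 targets, mitochondrial rRNA and the nucleolus; short bars are batch means. The 8 replication genes lie higher in batch 1 and the 3 histone genes lower. All genes shown were picked because edgeR called them, so their direction and lack of overlap are no separate result.

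Genes of nucleolar ribosome biogenesis were called in 7 of 30 cases (23.3%, against 7.1% of all genes), 6 higher and 1 lower, with a median of 0.49. The higher genes were *Nop2*, an rRNA methyltransferase, *Fbl*, the methyltransferase fibrillarin, *Gar1* and *Rrp9*, of small nucleolar ribonucleoproteins, *Bop1* and *Rrp1b*. *Nop2* had a CPM of 189, 169 and 128 in batch 1 and 56.7, 79.4 and 58.4 in batch 2 (log2 fold change 1.32 ± 0.25 (SE), edgeR adjusted p = 0.0168). *Npm1*, the abundant nucleolar chaperone nucleophosmin, was the gene called lower, with 2569, 3256 and 3350 CPM against 5115, 5426 and 5585 (log2 fold change -0.81 ± 0.18 (SE), edgeR adjusted p = 0.0267). *Npm1* transcripts have 42.5% GC, and those of the 6 higher genes 52.7 to 59.8%. Of the windows of *Npm1*, 24.3% lie in other records. With both trends removed none of the 7 held its call, with *Gar1* nearest (edgeR adjusted p = 0.0640), and the median was 0.39. edgeR called 0 of 30 without batch 1 replicate 1, batch 1 replicate 2 or batch 2 replicate 3, and 1 without batch 2 replicate 2 or without both batch 2 replicates 1 and 2.

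Cytosolic ribosomal protein genes gave 1 call and small negative values. Of 88 tested, 84 had a log2 fold change below 0 and in 54 every embryo of batch 1 lay below batch 2 (61.4%, against 15.9% of all genes), and 1 was called (against 3.48% of all genes), *Rpl23*, with a CPM of 407, 466 and 494 in batch 1 and 822, 646 and 868 in batch 2 (log2 fold change -0.77 ± 0.20 (SE), edgeR adjusted p = 0.0446). Of the windows of *Rpl23*, 18.8% lie in other records. The median of the list was -0.49, against -0.03 over all genes, and -0.25 with both trends removed. An unadjusted p under 0.05 was reached by 46 of 88, against 2718 of 10320 genes in all. The number of calls depended on the fit. DESeq2 called 11 lower (against 672 of 10304 genes), and edgeR 13 with the GC trend removed (against 1.88% of all genes) and 1 with both removed (against 0.94%), whereas edgeR called 0 whichever embryo was left out and without batch 2 replicates 1 and 2, and limma on log2(TPM + 1) called 1 higher and 0 lower. Their share of all counts was 5.59% ± 0.31 in batch 1 and 6.83% ± 0.68 in batch 2 (SD, n = 3 each; exact permutation test, two-sided, p = 0.1). Mitochondrial ribosomal protein genes had a median of -0.19 and 1 call of 78 (1.28%, against 7.1% of all genes), *Mrps6*, which was lost with both trends removed (edgeR adjusted p = 0.0664). Of the windows of *Mrps6*, 17.3% lie in other records.

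Transcripts of the mitochondrial genome showed 1 large difference. *mt-Rnr1*, the RNA of the small mitochondrial ribosomal subunit, had a CPM of 602, 583 and 802 in batch 1 and 2765, 2742 and 3921 in batch 2 (log2 fold change -2.25 ± 0.23 (SE), edgeR adjusted p = 0.00244), and it was called whichever embryo was left out and with both trends removed. *mt-Rnr2*, that of the large subunit, overlapped, with 12917, 15211 and 19166 CPM against 13625, 22834 and 26531 (edgeR adjusted p = 0.316). The other 16 of the 17 tested were not called (3.48% of all genes were called lower), the median was -0.18 in the counts but 0.42 with the GC trend removed and 0.53 with both removed, where 4 were called higher (against 0.707% of all genes), and the whole mitochondrial share was 7.86% ± 2.03 against 8.52% ± 1.56 (SD, n = 3 each; exact permutation test, two-sided, p = 0.6). Of 79 nuclear genes of oxidative phosphorylation, 3 were called higher (3.80%, against 3.62% of all genes) and 0 lower, with a median of -0.29. With both trends removed all 3 lost their call and 1 other gene was called lower. edgeR called 0 of the 79 higher without batch 1 replicate 1, batch 1 replicate 2, batch 2 replicate 2 or batch 2 replicate 3, and 1 without batch 1 replicate 3. DESeq2 called 6 higher and 3 lower, against 770 and 672 of 10304 genes, and edgeR 1 higher and 3 lower with the GC trend removed, against 1.4% and 1.88% of all genes. The median was -0.00241 with both trends removed and -0.61 without batch 2 replicates 1 and 2, where edgeR called 0. The 3 genes called higher as fitted, which lost their call with both trends removed, included *Atp5a1*, a catalytic subunit of ATP synthase, and *Ndufs1*, a core subunit of complex I. *Atp5a1* had a CPM of 685, 825 and 776 against 401, 437 and 398 (log2 fold change 0.89 ± 0.19 (SE), edgeR adjusted p = 0.0229).

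Lineage and morphogenesis genes differed in a few cases. *Gata4*, a transcription factor of primitive endoderm, had a CPM of 117, 154 and 44.8 in batch 1 and 32.5, 29.5 and 15.4 in batch 2 (log2 fold change 2.03 ± 0.45 (SE), edgeR adjusted p = 0.0268), and it was the 1 call among 6 primitive endoderm factors tested (3.62% of all genes were called higher and 3.48% lower). Among 14 trophectoderm genes, *Hand1*, with 134, 99.4 and 132 CPM against 59.0, 46.0 and 52.6 (edgeR adjusted p = 0.0200), and *Tfap2c*, with 226.04, 215 and 166 CPM against 80.3, 117 and 112 (edgeR adjusted p = 0.0384), were higher. Among 19 pluripotency and epiblast factors, *Nr5a2*, a nuclear receptor gene, was lower, with 100.1, 66.7 and 113 CPM against 183, 228 and 304 (log2 fold change -1.35 ± 0.28 (SE), edgeR adjusted p = 0.0212). *Pou5f1*, the core pluripotency factor, had 202, 195 and 90.1 CPM against 28.4, 85.8 and 87.9, with batch 1 higher in every embryo but no call (edgeR adjusted p = 0.0943). None of these 5 genes had an adjusted p under 0.05 with GC and length trends removed, where *Klf4* became the 1 pluripotency factor called, lower at -1.55 (edgeR adjusted p = 0.0471, and 0.0991 before). *Gata4*, *Hand1* and *Tfap2c* were not called without batch 1 replicate 1, batch 1 replicate 2, batch 2 replicate 2, batch 2 replicate 3 or both batch 2 replicates 1 and 2. Without batch 2 replicate 1 edgeR called 1 of the 14 trophectoderm genes. *Nr5a2* was not called without batch 1 replicate 1, batch 1 replicate 2 or batch 2 replicate 3.

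The next lists are read against the same 3.62% of all genes called higher and 3.48% lower. Of 16 adhesion and tight junction genes, *Jup*, plakoglobin, was called higher (1.52) and *Itga6*, an integrin alpha, lower (-2.14). Of 21 polarity and Hippo genes, the kinases *Lats1* (-1.55) and *Stk4* (-1.08) were lower and 0 were higher. Of 35 proteasome subunits, *Psmb7* and *Psma3*, of the core particle, were lower (-0.84 and -0.80) and *Psmd3*, of the regulatory particle, higher (edgeR adjusted p = 0.0422). Of the windows of *Psma3*, 15.4% lie in other records. All 7 lost their call with both trends removed, although each kept its sign, with *Psma3* at -0.0027, and none was called without batch 1 replicate 2 or without batch 2 replicate 2. *Slc2a3*, a glucose transporter, was the 1 call of 19 glycolysis and pyruvate genes, with a CPM of 130, 122 and 87.1 in batch 1 and 32.0, 27.7 and 24.5 in batch 2 (log2 fold change 2.01 ± 0.27 (SE), edgeR adjusted p = 0.0074). It remained called with both trends removed, at adjusted p = 0.00455, and without batch 2 replicates 1 and 2, at 0.0352, but not without batch 1 replicate 2, at 0.0632.

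Stress-related lists held calls in both directions. Of 16 p53 targets, *Cdkn1a*, the cyclin-dependent kinase inhibitor p21, and *Trp53inp1* were lower in batch 1 and *Ei24* was higher (against 3.48% and 3.62% of all genes called lower and higher). *Cdkn1a* had a CPM of 42.1, 59.1 and 62.9 in batch 1 and 334, 168 and 119 in batch 2 (log2 fold change -1.92 ± 0.37 (SE), edgeR adjusted p = 0.0168). *Trp53inp1* had 30.1, 14.6 and 21.0 CPM against 167, 65.1 and 116 (log2 fold change -2.40 ± 0.39 (SE), edgeR adjusted p = 0.0102). In both, batch 2 replicate 1 had the highest value. The median of the list was -1.06, but -0.01 without batch 2 replicate 1 and 0.07 without batch 2 replicates 1 and 2. *Ei24* had 565, 593 and 420.5 CPM against 269, 97.4 and 76.9 (edgeR adjusted p = 0.0287). With both trends removed *Cdkn1a* remained called (edgeR adjusted p = 0.0325), and *Trp53inp1* (0.0522) and *Ei24* (0.0803) did not. Without batch 1 replicate 2 edgeR called none of the 3, and without batch 1 replicate 1 it called 1. Without batch 2 replicates 1 and 2 it called *Trp53inp1* (0.0259) and *Ei24* (0.0116). Of 15 ATF4 targets, *Phgdh*, which begins serine synthesis, and *Trib3* were called higher (1.23 and 2.19; 3.62% of all genes were), with a median of 0.54, and 47.8% of the windows of *Phgdh* lie in other records. Both lost their call with the GC trend removed, at edgeR adjusted p = 0.0836 and 0.117, and the median was 0.23 with both trends removed. Both were also lost without batch 1 replicate 1, batch 1 replicate 2 or batch 2 replicate 3. Without batch 2 replicates 1 and 2 the median was 1.11, over the 14 genes then tested. Among 15 heat shock chaperones and 5 immediate early genes, 0 passed an edgeR adjusted p under 0.05 (against 7.1% of all genes). An unadjusted p under 0.05 was reached by 5 and 1 (against 2718 of 10320 genes), and DESeq2 called 2 and 0 (against 14%). Without batch 2 replicate 1 edgeR called 1 heat shock chaperone higher and 2 lower, among 921 calls in all.

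Maternal transcripts gave low medians without calls by edgeR. Over all genes edgeR called 7.1% and DESeq2 14%, and 2718 of 10320 had an unadjusted p under 0.05, so 0 calls in lists this short say little. The median log2 fold change was -1.14 over 9 oocyte secreted and coat genes and -0.65 over 12 maternal regulators, with 0 calls by edgeR in either, 2 and 1 genes with an unadjusted p under 0.05, and 1 call by DESeq2 (*Oosp1*, with 1.402, 4.17 and 2.86 CPM in batch 1 and 32.3, 13.4 and 1.69 in batch 2). Without batch 2 replicates 1 and 2 these medians were 0.11 and 0.35, so their sign rested on those embryos. Over 15 genes of the subcortical maternal complex and the NLRP family the median was -0.04, with 0 calls by edgeR and by DESeq2 and 2 unadjusted p under 0.05. Of 7 genes of the 2-cell stage, *Tdpoz2* was lower (against 3.48% of all genes), though not without batch 1 replicate 2. Of 7 pump and channel genes of the blastocyst cavity, 0 were called by edgeR and 1 by DESeq2, with 2 unadjusted p under 0.05. With the GC trend removed edgeR called 1 of the 7 higher (against 1.4% of all genes).

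**Figure D4:**
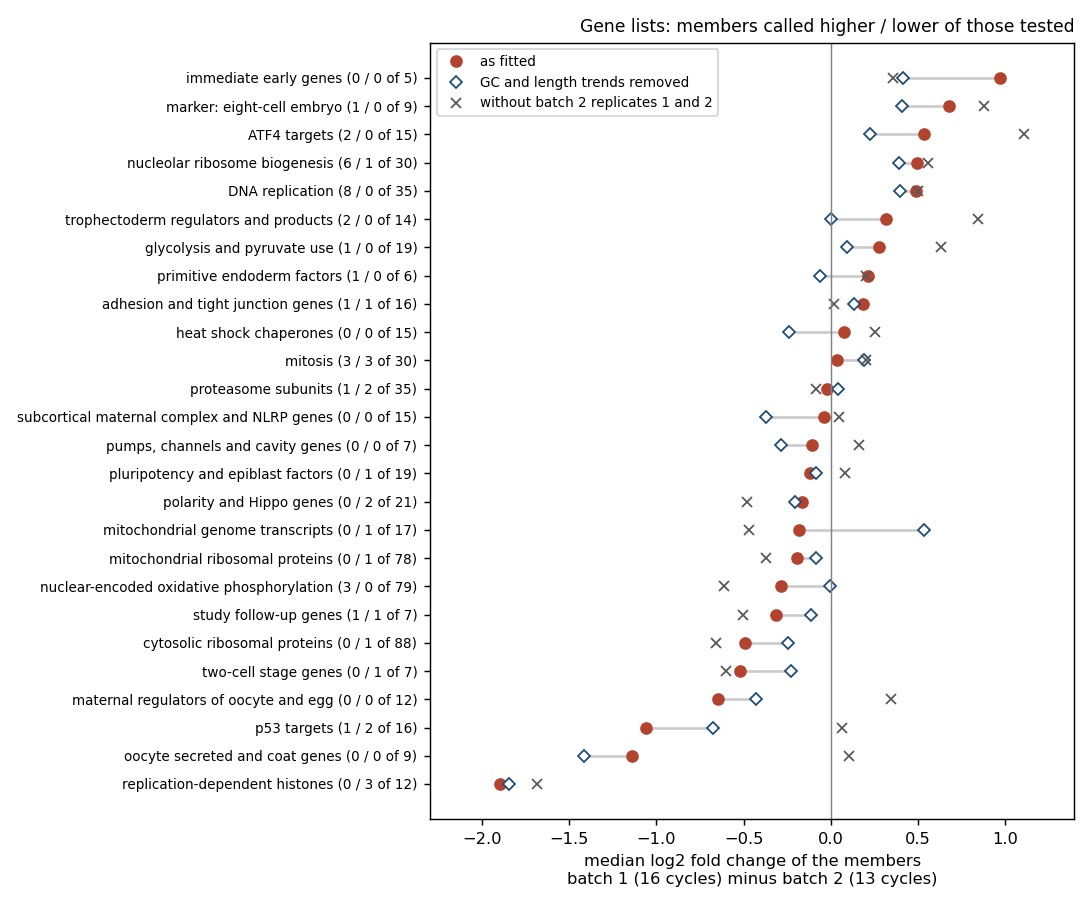
Median log2 fold change between batches of each gene list with at least 5 members tested, as fitted (filled), with GC and length trends removed (open) and without batch 2 replicates 1 and 2 (cross); labels give members called higher / lower of those tested. DNA replication (0.49, 0.40 and 0.50) and histones (-1.90, -1.85 and -1.68) stay on their side of 0, whereas p53 targets and oocyte genes cross 0.

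*Prdm10* and the genes followed up by the study were compared because their levels in mutants are read against these controls. *Prdm10* had a CPM of 39.3, 21.3 and 32.2 in batch 1 and 42.2, 66.6 and 43.9 in batch 2, with every embryo of batch 1 lower but no call (log2 fold change -0.71 ± 0.33 (SE), edgeR adjusted p = 0.200). *Eif3b*, a core subunit of translation initiation factor 3, was higher in batch 1, with 248, 342 and 175 CPM against 133, 112 and 104 (log2 fold change 1.13 ± 0.27 (SE), edgeR adjusted p = 0.0339). *Selenow*, a selenoprotein gene, was lower, with 68.6, 78.5 and 80.8 CPM against 106, 176 and 198 (log2 fold change -1.07 ± 0.27 (SE), edgeR adjusted p = 0.0398). With both trends removed the difference in *Eif3b* was 0.40 (edgeR adjusted p = 0.407) and that in *Selenow* -1.21 (edgeR adjusted p = 0.0373). *Eif3b* was called in 2 of the 6 fits that leave out 1 embryo, with adjusted p up to 0.164, and *Selenow* in 1 of 6, with adjusted p up to 0.153. The effective-length offset also ended the call of *Eif3b* (0.77, edgeR adjusted p = 0.0871). *Eef1d*, *Ube2a* and *Ss18* had log2 fold changes of 0.37, -0.32 and -0.18 with no call. With both trends removed these were 0.26, 0.13 and -0.11. Without batch 2 replicate 2 *Ss18* was at 0.28, so the signs of *Ube2a* and *Ss18* depended on the fit. With the GC trend alone removed *Eef1d* was at 0.04. *Rpl19* had -0.58 (edgeR adjusted p = 0.0937) and shares 57.4% of its windows with other records. It was called with the GC trend removed (-0.92, edgeR adjusted p = 0.0414) but not with both trends removed (-0.58, edgeR adjusted p = 0.0849).

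Library complexity and repeatability were then compared, since cycle number can change both. At a common depth of 3534686 counts, 14911 ± 152 genes were detected in batch 1 and 14662 ± 539 in batch 2 (SD, n = 3 each; exact permutation test, two-sided, p = 0.6). The difference of 249 genes was 492 without batch 2 replicate 2 and -40.7 without batch 2 replicate 3, so its sign rested on that embryo. The 100 highest genes took 32.8% ± 1.92 of counts in batch 1 and 36.8% ± 1.252 in batch 2 (SD, n = 3 each), without overlap (exact permutation test, two-sided, p = 0.1). Protein-coding genes took 86.5% ± 0.47 against 82.6% ± 1.93 (SD, n = 3 each; exact permutation test, two-sided, p = 0.1). The biological coefficient of variation between embryos was 0.373 in batch 1 and 0.495 in batch 2. Without batch 2 replicate 1 it was 0.353 in batch 2, so which batch was the more variable depended on that embryo.

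The effective length, which follows the isoforms to which RSEM assigned the reads, was tested with limma in 6036 genes with several transcripts and a mean count above 50. Only 2 (0.0331%) passed an adjusted p under 0.05, and 805 had an unadjusted p under 0.05. *Lss*, the sterol enzyme lanosterol synthase, had effective lengths of 3405, 3517 and 3433 bases in batch 1 and 2053, 2211 and 2164 in batch 2 (ratio 1.61, limma adjusted p = 0.0266). *Ddx60*, an antiviral helicase gene, had 6282, 6461 and 6461 bases against 3874, 4129 and 4052 (ratio 1.59, limma adjusted p = 0.0266). The expression of neither was called between the batches. Leaving out single embryos gave 0 to 22 genes, with 22 without batch 2 replicate 2.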

How the data were processed

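Single 8-cell embryos were sequenced with Smart-seq2 and Nextera XT libraries (single-end). The authors mapped reads with STAR (version 2.6.0c) to GRCm38.p6 and quantified genes with RSEM, and the deposited table of each embryo holds RSEM expected counts, TPM values and the effective length in bases, which is an unscaled length and no expression unit. The authors' DESeq2 table of mutants against controls and the mutant tables were not used here. No molecular identifiers were used, so PCR copies were counted separately.

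Expected counts were rounded to whole numbers. Batches come from the sample titles, and replicates are separate embryos numbered in order, so numbers pair nothing. Genes with a mean size-factor-normalised count above 10 over the 6 libraries were tested in R (version 4.3.3) by the quasi-likelihood test of edgeR (version 4.0.16), with TMM normalisation and Benjamini-Hochberg adjustment over all genes. CPM uses TMM effective library sizes, and each SE is the fold change divided by the root of the F statistic. Single values per library were compared with exact permutation tests over 20 splits. GC content is the mean over a gene's transcripts in GENCODE annotation of the same build (release M21). Alternatives were DESeq2 (version 1.42.0), limma (version 3.58.1) with voom or on log2(TPM + 1), DESeq2 size factors, other filters, an effective-length offset, a lowess GC trend per library removed (span 0.3), and each embryo left out. Removal of GC and length trends together, and leaving out batch 2 replicates 1 and 2, were chosen after seeing the data. Scripts were tested on simulated counts.

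Groups of genes were written by symbol, and members and lists were chosen with earlier results of these data known, so no list was given a test. Named genes were *Prdm10* and 6 genes the study followed up, the 10 largest changes each way among called genes with a mean count above 100 and no overlap, up to 4 called members of each list by adjusted p (or the 2 most expressed), *Xist*, Y-linked genes, markers, and genes called by effective length. Members named beyond these were chosen after their values were seen. Values of some list members are not reported here.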

Additional observations from a re-analysis of the deposited data

How the results depend on the processing

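No paired analysis was possible because the labels give the embryos of the batches no shared numbers. Against 733 genes called between batches (666 beyond 2-fold), limma-voom, limma on log2(TPM + 1), DESeq2 size factors, a mean count above 100 and an effective-length offset gave counts within 1.5 times. DESeq2 called 1442 (1171 beyond 2-fold), including 730 of the 733, and no filter on low counts gave 1375 (1172). Removing the GC trend gave 338 (309), removing GC and length trends 170 (150), and leaving out batch 2 replicates 1 and 2 gave 163 (163). Leaving out 1 embryo gave 11 (without batch 1 replicate 2) to 921 (without batch 2 replicate 1) calls, and 11 to 816 beyond 2-fold. The number of genes with a changed effective length was 2, 1 with a mean count above 200, and 0 to 22 with 1 embryo left out. The ratio of the coefficients of variation, batch 1 to batch 2, was 0.754, ranged from 0.655 to 1.06 with 1 embryo left out, and passed 1 only without batch 2 replicate 1. *Cenpe* changed sign with GC and length trends removed (0.16), and so did *Ube2a* (0.13), which was not called. The GC and length trends kept their sign under the alternatives run. The causes were not tested. By depth, 1.29% of genes with a mean count of 10 to 30 were called, 14.2% of those from 300 to 1000 and 11.3% of those above 1000.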

Other observations

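A few genes were seen in only 1 of the batches. With 0 counts in all of batch 2 and at least 10 in every embryo of batch 1 there were 7 records, *Dlx3*, *Sh3bp1*, *Dusp2*, *Pld6*, *Frat2*, *Rdh1* and *Gm44597*. *Dlx3*, a homeobox gene that later acts in trophoblast and skin, had 68, 24 and 12 counts in batch 1, and *Dusp2*, a phosphatase of MAP kinases, had 16, 23 and 43. *Sh3bp1* had 32, 39 and 22, although 54.7% of its 50-base windows lie in another record, as do 75.5% of those of *Gm44597* and 15.6% of those of *Rdh1*. The reverse was seen for *Lyz2* and *Gm44987*, the latter with 18, 19 and 24 counts in batch 2. They were chosen after their values were seen.

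By kind of gene, 366 of 9429 protein-coding genes were called higher in batch 1 and 321 lower, with a median log2 fold change of 0.01. Of 159 lincRNA genes, 2 were higher and 8 lower (against 3.62% and 3.48% of all genes), with a median of -0.63. Long noncoding genes took 2.502% of counts in batch 2 replicate 1, 1.008% and 0.868% in batch 2 replicates 2 and 3, and 0.832% to 0.929% in batch 1, and the part of that embryo in the median was not tested. By chromosome, the median log2 fold change was lowest on chromosome 13 among the autosomes (-0.38 over 422 genes) and highest on chromosome 11 (0.12 over 856 genes), and on the X chromosome it was -0.03 over 315 genes, as over all genes. X-linked genes other than *Xist* took 3.19%, 1.80% and 3.40% of counts in batch 1 replicates 1 to 3 and 2.00%, 3.14% and 3.65% in batch 2, lowest in the embryos without *Xist* counts.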
